A study of Mus musculus with 6 samples.

Results

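The myeloid C-type lectin receptors described here are 10 genes chosen by name from the 23508 genes of the count table: Clec7a, Clec9a, Clec4n, Clec4d, Clec4e, Clec5a, Clec12a, Clec4a1, Clec4a2 and Clec4a3. All 10 had a row, and all 10 were among the 16755 genes tested. They were proposed with the difference between the groups in view, so their fold changes are a description. Counts of receptors past a threshold are printed beside the share over all genes, or with a word that no share is given, and support nothing. RNA was sequenced from 6 tumors of 4T1, a mouse mammary carcinoma cell line used to model triple-negative breast cancer in mice. In 3 tumors, called before peak, the tissue was taken before the first peak of the neural activity recorded in the tumor, and in 3, called with peak, on the day of that peak. The labels give both groups the same tumor type and no host strain, genotype, treatment, sex or age, and they do not say whether each tumor came from its own animal, so the spread between samples may be technical. Every tumor stems from 1 cell line, and time in the host cannot be told apart from the peak.

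C-type lectin receptors of myeloid cells sit in the plasma membrane and carry an extracellular lectin-like domain that binds microbial sugars and lipids or molecules set free by dying cells. Some activate the cell through the kinase SYK and the adaptor CARD9, either by a tyrosine motif in their own tail or through the adaptors FcRγ (Fcer1g) and DAP12 (Tyrobp). Others carry an inhibitory motif that recruits the phosphatases SHP-1 (Ptpn6) and SHP-2 (Ptpn11). Macrophages, monocytes, neutrophils and dendritic cells use them to sense fungi, mycobacteria and dead cells, and all of these cell types can enter tumors.

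All 10 genes lie on chromosome 6 of GRCm38 in the GENCODE M21 annotation. Clec4a1, Clec4a3, Clec4a2, Clec4n, Clec4d and Clec4e fill 368 kb in this order, from base 122921848 to base 123289870. Clec12a, Clec9a and Clec7a lie in 130.1 kb from base 129342691 to base 129472779, and Clec5a stands alone, from base 40574894 to base 40585821. The annotation lists 9 of them as protein coding and Clec7a as a polymorphic pseudogene. Clec9a overlaps Clec1b on the same strand over 184 exon bases, but Clec1b itself had only 1 to 8 counts per library. Of the 50-base windows in their transcripts, 6.83% in Clec4a2 (mainly with Clec4a4 and Clec4b1), 4.02% in Clec9a, 0.686% in Clec4n and 0.457% in Clec12a also occur in another gene. Reads from such windows may belong to either gene, and the share of counts that this affects was not measured. The other 6 genes shared no such window.

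The start-site regions of 4 receptors are shown because they span the range of the fold changes. Clec12a, Clec4d and Clec7a had the highest fold changes, and Clec5a had one of the lowest. Each sequence runs 5′ to 3′ on the strand of the gene, from 250 bases before to 50 bases after the RefSeq start in GRCm38.p6. Capitals mark the PU box GAGGAA on either strand (TTCCTC when read from the other strand), the core recognised by PU.1, the myeloid transcription factor made from Spi1.
Clec12a, chr6:129349994-129350293, plus strand: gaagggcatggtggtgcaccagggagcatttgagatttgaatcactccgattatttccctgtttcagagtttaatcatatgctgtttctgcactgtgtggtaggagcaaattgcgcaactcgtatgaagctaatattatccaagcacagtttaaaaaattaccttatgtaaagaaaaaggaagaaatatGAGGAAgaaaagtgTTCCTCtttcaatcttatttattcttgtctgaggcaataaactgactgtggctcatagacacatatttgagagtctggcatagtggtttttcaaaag
Clec7a, chr6:129472730-129473029, minus strand: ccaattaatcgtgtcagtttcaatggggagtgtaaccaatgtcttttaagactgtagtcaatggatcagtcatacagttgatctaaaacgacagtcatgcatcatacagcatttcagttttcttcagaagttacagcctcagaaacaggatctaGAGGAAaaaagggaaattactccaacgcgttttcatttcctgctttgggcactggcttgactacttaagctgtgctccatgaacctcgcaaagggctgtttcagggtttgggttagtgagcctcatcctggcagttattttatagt
Clec4d, chr6:123261857-123262156, plus strand: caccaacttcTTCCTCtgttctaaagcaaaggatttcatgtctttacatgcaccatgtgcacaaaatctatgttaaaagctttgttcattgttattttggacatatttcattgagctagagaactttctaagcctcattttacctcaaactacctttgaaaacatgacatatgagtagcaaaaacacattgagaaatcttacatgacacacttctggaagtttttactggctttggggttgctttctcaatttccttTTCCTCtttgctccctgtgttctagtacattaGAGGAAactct
Clec5a, chr6:40585756-40586055, minus strand: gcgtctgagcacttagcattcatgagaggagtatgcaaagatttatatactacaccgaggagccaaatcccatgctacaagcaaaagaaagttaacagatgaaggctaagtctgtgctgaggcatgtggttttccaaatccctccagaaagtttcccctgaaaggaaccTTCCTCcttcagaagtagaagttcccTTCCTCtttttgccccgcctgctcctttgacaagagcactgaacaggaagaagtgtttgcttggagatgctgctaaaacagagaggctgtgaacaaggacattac
The Clec12a region holds the motif at -61 and, on the other strand, at -47. The Clec7a region holds it at -96, the Clec4d region at -240, 8 and 40, and the Clec5a region at -81 and -55, counted from the start site to the first base of the match. RefSeq regions were given for 9 of the 10 receptors, all but Clec4n, and 7 of these 9 had a PU box in a listed region, against 31.3% of 27025 genes. A looser motif of C/EBP factors, TTNNGNAA on either strand, occurred in 5 of the 9 and in 44.1% of genes. The receptors without a PU box in a listed region were Clec9a and Clec4a2, with log2 fold changes of 0.46 and 0.62. All 4 regions shown hold it, those of receptors with high fold change and that of Clec5a. A relation between the motif and the fold change was not tested, and a match is only a description of these letters.

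Before the values of single receptors, the libraries themselves need a word. Total counts ran from 10591067 to 14549357. Before-peak replicate 3 stood apart on the second principal component (-61.9, against 4.5 to 19.3 in the other 5) and had the highest summed level of 8 B cell markers (584 CPM, the read count scaled to library size with TMM factors, against at most 148). The 10 skeletal muscle markers summed to 1475 CPM in with-peak replicate 2, to 1492 CPM in with-peak replicate 3 and to 65.0 to 272 CPM elsewhere. In the same pair of tumors 7 erythroid genes summed to 1457 and 2154 CPM, against 137 to 277 CPM in the other 4, and all 5 tested were on the positive side (median log2 fold change 2.75). So were all 8 fibroblast markers (median 0.55) and all 8 endothelial markers (median 0.31), although their summed levels overlapped between the groups. All 10 carcinoma epithelial markers were detected in every library (3801 to 4901 CPM summed before the peak and 3147 to 4671 CPM with it). Of these, 8 had a negative log2 fold change (52.3% of genes tested) and 3 were lower in every with-peak tumor (7.38%). Among the 3 was Krt5 (-1.57), which DESeq2 called. EdgeR called 0 genes of these lists. The macrophage markers went the same way as most receptors. All 12 had higher mean levels with the peak (positive log2 fold change) and 8 were higher in every with-peak tumor (8.13% of genes tested). They summed to 2032 to 3363 CPM before the peak and 3930 to 5524 CPM with it, with none at 0 in any library. The part of these cell types in the receptor levels was not tested. In bulk tissue, more cells of a type and more RNA per cell cannot be told apart.

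Values of the tumors are given in the order of replicates 1, 2 and 3. Of the 10 receptors, 6 lay above the whole before-peak range in all 3 with-peak tumors: Clec12a, Clec7a, Clec4d, Clec4a1, Clec4a2 and Clec4a3. The groups overlapped for Clec4e, Clec9a, Clec5a and Clec4n. Over all genes tested, 8.13% lay above that range in this way, 7.38% below it and 15.5% on either side, but the choice of the receptors used the same contrast, so nothing is read from this comparison. The median log2 fold change (with peak over before peak, called the log2 ratio below) was 0.92 over the receptors and -0.02 over all genes tested, and 9 of 10 receptors had a positive one, as had 47.7% of genes, while 52.3% had a negative one. A log2 ratio above 1 was seen in 5 receptors and in 3.4% of genes. By the edgeR quasi-likelihood test with adjustment over all genes, 0 receptors were called, as were 0% of genes in either direction. DESeq2 called 4 receptors higher, against 1.24% of genes, and 7 had an unadjusted edgeR p under 0.05 on the higher side, against 6.12% of genes. On the lower side 0 receptors had such a p and 3.38% of genes did, and DESeq2 called 0 receptors and 0.119% of genes lower.

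**Figure D1:**
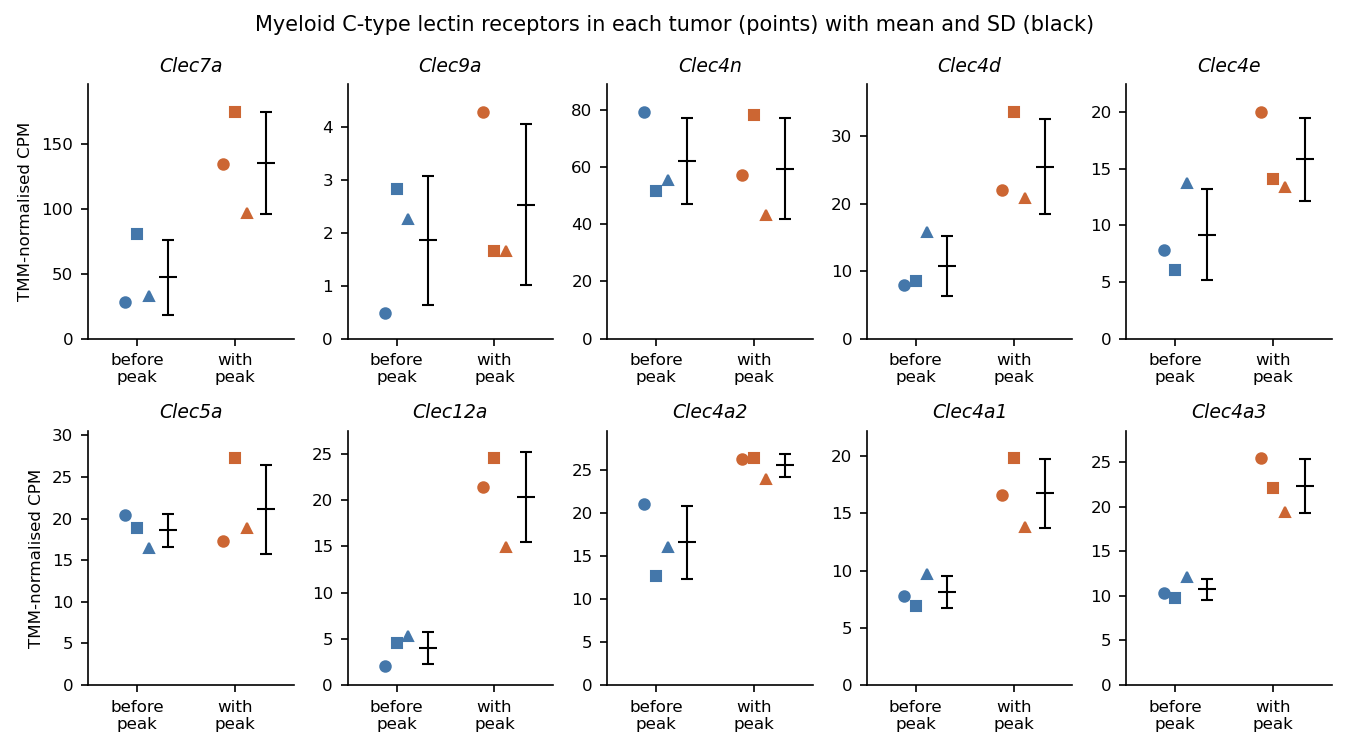
TMM-normalised CPM (y axis, from 0, with its own scale for each receptor) of 10 myeloid C-type lectin receptors in 3 before-peak (blue) and 3 with-peak (orange) tumors. Circles, squares and triangles are replicates 1, 2 and 3, and black marks give the mean and SD. The groups are apart for Clec7a, Clec4d, Clec12a, Clec4a2, Clec4a1 and Clec4a3, and overlap for Clec9a, Clec4n, Clec4e and Clec5a.

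Among the receptors that signal through a tyrosine motif of their own, Clec7a encodes Dectin-1, the receptor for fungal beta-glucans. It was at 28.2, 80.6 and 32.8 CPM before the peak and at 135, 175 and 96.9 CPM with it. Before-peak replicate 2 stood well above the other before-peak tumors, yet below all with-peak tumors. The means were 47.2 ± 29.0 and 136 ± 39.1 CPM (SD, n = 3), a log2 ratio of 1.52 (SE 0.47). Without that library the log2 ratio was 2.15, so this 1 tumor moves the value. Clec9a encodes DNGR-1, which binds the actin filaments of dead cells and marks type 1 conventional dendritic cells. It was the scarcest receptor, with 6, 36 and 27 counts before the peak and 61, 21 and 17 with it. These correspond to 0.48, 2.82 and 2.25 CPM before the peak and 4.28, 1.65 and 1.65 CPM with it. With-peak replicate 1 alone lay above the before-peak range, and the log2 ratio of 0.46 (SE 0.65) became -0.16 without it. Of the 10 other markers of type 1 dendritic cells, 6 had a positive and 4 a negative log2 ratio, and edgeR called 0. In every with-peak tumor 4 were higher (8.13% of genes tested) and 0 lower (7.38%). Naaa, Cadm1 and Ifi205 had the smallest p-values, with log2 ratios of 0.52, 1.06 and 0.53. Xcr1, the chemokine receptor of these cells, had a log2 ratio of -0.48. It was at 1.25 to 2.83 CPM before the peak and 1.16 to 1.47 CPM with it, with overlapping groups.

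Clec4n, Clec4d and Clec4e are neighbours that all signal through FcRγ. Clec4n was nearly level, while Clec4d and Clec4e had positive log2 ratios. Differences between these receptors were not tested. Clec4n, the mannan receptor Dectin-2, was at 79.4, 51.7 and 55.5 CPM before the peak and 57.2, 78.2 and 43.1 CPM with it. The groups overlapped over almost their whole range, and the log2 ratio was -0.06 (SE 0.24). It lay between -0.31, without with-peak replicate 2, and 0.15, without before-peak replicate 1, so its sign rests on single tumors. Clec4d, the receptor MCL that pairs with Mincle, was at 7.95, 8.46 and 15.8 CPM before the peak and 22.0, 33.6 and 20.8 CPM with it. Its means were 10.7 ± 4.41 and 25.5 ± 7.08 CPM (SD, n = 3), a log2 ratio of 1.25 (SE 0.31). Every with-peak tumor exceeded before-peak replicate 3, the highest of its group. Clec4e, which encodes Mincle, the receptor for the mycobacterial cord factor, was at 7.79, 6.03 and 13.7 CPM before the peak and 20.1, 14.1 and 13.4 CPM with it. With-peak replicate 3 lay just below before-peak replicate 3. The log2 ratio of 0.79 (SE 0.32) was 1.20 without that before-peak tumor, and the groups were then apart.

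Neutrophils also express Clec4d and Clec4e, and 10 of the 12 tested neutrophil markers were on the positive side (median log2 ratio 0.54). Summed over 13 markers they were at 451 to 958 CPM before the peak and 571 to 817 CPM with it, with none at 0. Mmp9, a protease gene, held most of this sum in before-peak replicate 2 (794 of 958 CPM). The other 12 markers summed to 218, 164 and 369.9 CPM before the peak and to 455, 290 and 357 CPM with it. The groups overlapped through before-peak replicate 3. Among before-peak tumors, the alarmin genes S100a8 and S100a9 were highest in replicate 3 (83.5 and 140.0 CPM), as were Clec4d and Clec4e. Among with-peak tumors S100a8 and S100a9 were lowest in replicate 2 (53.4 and 87.8 CPM), where Clec4d was highest. Both were highest in replicate 1 (117 and 176 CPM), as were Clec4e and the other neutrophil markers except Ltf, Csf3r, Mmp9 and G0s2. These were highest in with-peak replicate 2, as was Clec4d (29.5, 48.3, 445 and 36.7 CPM). Ltf was lowest in before-peak replicate 3 (4.67 CPM). It was the only tested neutrophil marker that was higher in every with-peak tumor (8.13% of genes tested). The part of neutrophils in the levels of these receptors was not tested.

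Clec5a, the receptor MDL-1 that signals through DAP12, was nearly level. It was at 20.5, 18.9 and 16.5 CPM before the peak and 17.3, 27.3 and 18.8 CPM with it, so that only with-peak replicate 2 lay above the before-peak tumors. The log2 ratio was 0.18 (SE 0.21), and -0.045 without that tumor.

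The receptors with an inhibitory motif were both higher in every with-peak tumor. Clec12a encodes MICL, which dampens responses to uric acid crystals of dead cells. It was at 2.09, 4.54 and 5.33 CPM before the peak, from 26, 58 and 64 counts, and at 21.5, 24.5 and 14.9 CPM with it, from 306, 313 and 154 counts. The lowest with-peak tumor was far above the highest before-peak tumor. The means of 3.99 ± 1.69 and 20.3 ± 4.89 CPM (SD, n = 3) stood in a ratio of 5.09, and the log2 ratio of 2.35 (SE 0.35) stayed between 2.04 and 2.61 when each tumor was left out. Clec4a2, which encodes the inhibitory receptor DCIR, was at 21.03, 12.7 and 16.1 CPM before the peak and 26.3, 26.4 and 24.0 CPM with it. The gap between the groups was narrow, and the log2 ratio was 0.62 (SE 0.20).

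Clec4a1 and Clec4a3, neighbours of Clec4a2 from the same gene family, varied little within each group. Clec4a1 was at 7.79, 6.89 and 9.67 CPM before the peak and 16.6, 19.8 and 13.8 CPM with it. Clec4a3 was at 10.4, 9.79 and 12.1 CPM before the peak and 25.5, 22.2 and 19.4 CPM with it. The groups were well apart for both, with log2 ratios of 1.05 (SE 0.23) and 1.06 (SE 0.19). Their profiles over the 6 libraries were the closest of any pair of receptors, with a root mean square difference of 0.14 between their centred log2 CPM values.

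**Figure D2:**
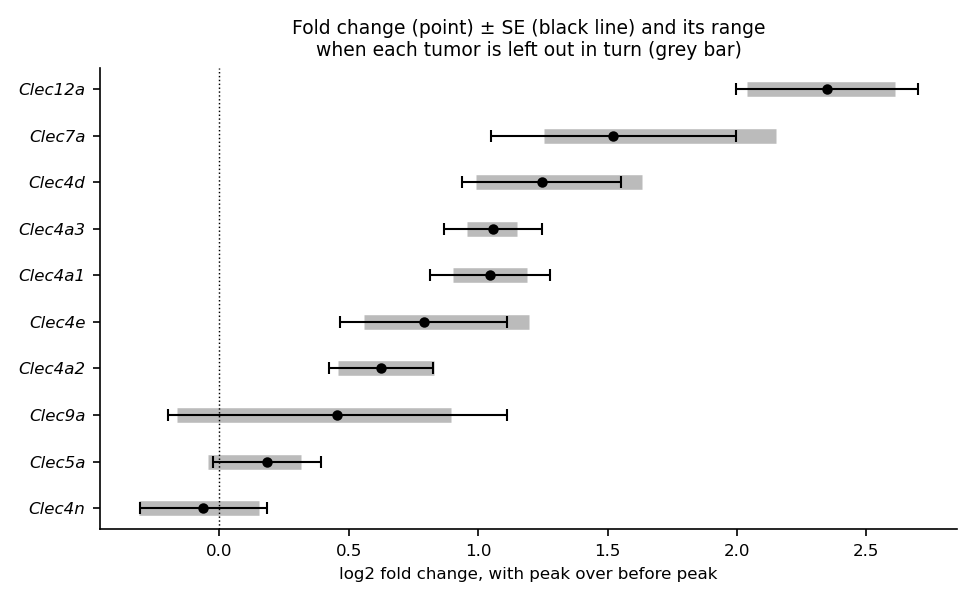
Log2 ratio of each receptor (x axis, with peak over before peak, points) with its SE (black lines) and the range when each of the 6 tumors is left out in turn (grey bars). Clec12a is highest at 2.35 and its grey bar runs from 2.04 to 2.61, while the grey bars of Clec9a, Clec5a and Clec4n cross 0.

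Levels of different receptors were compared as CPM per kilobase of exon. The exon lengths came from GENCODE M21, but the annotation behind the counts is not given, so the order holds only for these lengths. Before the peak Clec4n led with 43.8 ± 10.6, followed by Clec7a with 17.9 ± 11.0 (SD, n = 3), and both ranges were apart from those of the next receptor. Clec4a3, Clec4d, Clec4a2, Clec4a1 and Clec5a followed at 8.09 to 4.85, and each overlapped its neighbour in this order. Clec4e was at 1.85, apart from both neighbours, and Clec12a at 0.72 and Clec9a at 0.56 overlapped. With the peak Clec7a came first with 51.4 ± 14.8 and Clec4n second with 41.9 ± 12.4. Their ranges overlapped, but Clec7a was above Clec4n in all 3 with-peak tumors. Clec12a moved from the ninth to the eighth place, at 3.67, where it overlapped Clec4e at 3.19. Its place depends on the division by length, since its mean CPM with the peak (20.3) lay above that of Clec4a1 (16.7).

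The make-up of the receptor transcripts also differed between the groups. Shares and ratios rest on the same exon lengths. Summed over the 10 receptors, the level per kilobase was 99.0, 96.2 and 90.9 before the peak and 158, 196 and 122.5 with it. Clec4n held 56.5%, 37.8% and 43.0% of this sum before the peak and 25.6%, 28.1% and 24.8% with it. Its share was lower in every with-peak tumor although its level was not. The share of Clec12a went the other way, from 0.4% to 1.1% before the peak to 2.2% to 2.5% with it. Clec7a held 10.8%, 31.8% and 13.7% before the peak and 30.0% to 33.9% with it, so that before-peak replicate 2 had a with-peak share. The ratio of Clec7a to Clec4n was 0.191, 0.839 and 0.318 before the peak and 1.21 to 1.27 with it.

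**Figure D3:**
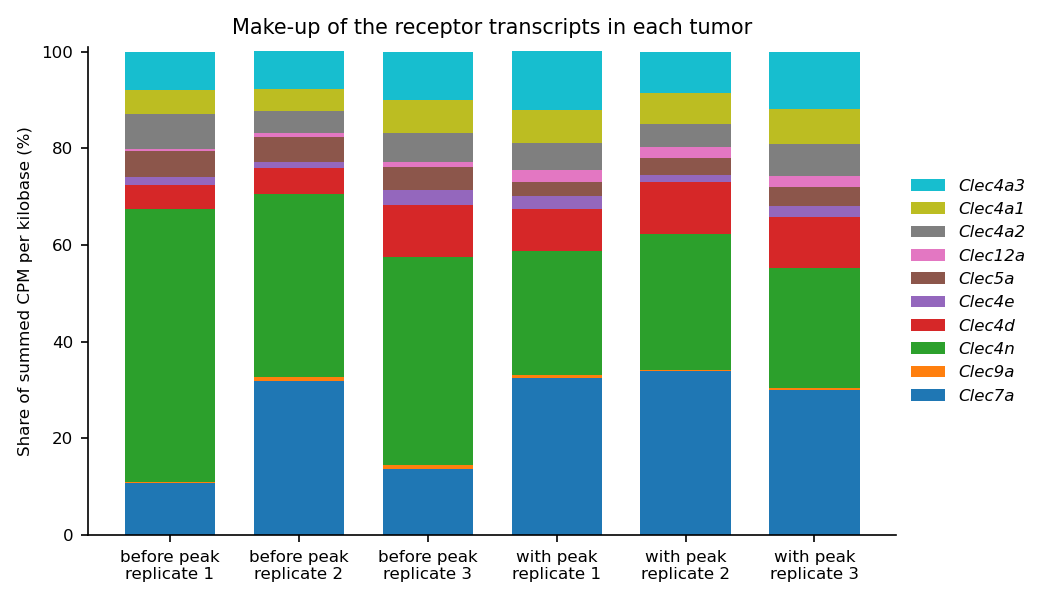
Share of each receptor in the summed CPM per kilobase of all 10 (y axis, percent) in each tumor (bars). The green Clec4n part takes 37.8% to 56.5% in before-peak tumors and 24.8% to 28.1% in with-peak tumors, and the blue Clec7a part is narrow only in before-peak replicates 1 and 3.

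Set against the macrophage markers of the same tumor, the receptors separated. The reference was the mean log2 CPM of the 12 macrophage markers, which was itself 0.71 higher with the peak. Clec12a was still higher in every with-peak tumor, at -5.77, -4.31 and -4.38 relative to that mean before the peak and -2.97, -3.09 and -3.43 with it (a difference of 1.66). Clec4a1 was also higher in every with-peak tumor, by 0.32 (log2) on average, but the highest before-peak and the lowest with-peak tumor both stood at -3.54 after rounding. Clec4n and Clec5a were lower relative to the markers in every with-peak tumor, with differences of -0.79 and -0.56. On this scale 0.645% of all genes tested were higher and 63.7% lower in every with-peak tumor, so the lower position of these 2 receptors is that of most genes. The other 6 receptors overlapped, and Clec4a2 and Clec4e differed by only -0.07 and 0.12. Set against Ptprc, the pan-leukocyte marker CD45, 5 receptors were higher in every with-peak tumor and 0 lower (2.14% and 0.286% of genes). Set against Csf1r, 4 were higher and 2 lower (1.43% and 29.6% of genes). Against the adaptor Fcer1g, 1 was higher and 2 lower (0.519% and 56.5% of genes), and against Tyrobp 2 and 2 (0.597% and 63.8% of genes). Since the receptors were chosen on this contrast, nothing is read from these counts. Ptprc was at 82.4, 93.7 and 270.0 CPM before the peak and 125, 117 and 130.3 CPM with it, with before-peak replicate 3 far above the rest, and its log2 ratio was -0.26 (SE 0.49, adjusted p = 0.900 by edgeR).

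**Figure D4:**
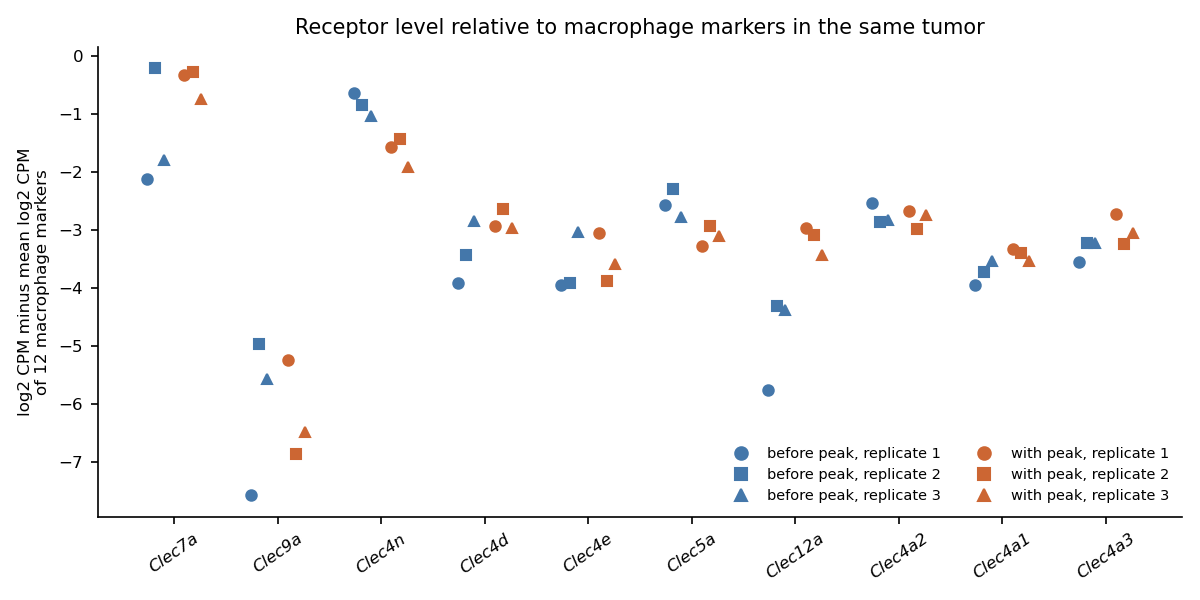
Log2 CPM of each receptor minus the mean log2 CPM of 12 macrophage markers in the same tumor (y axis) for before-peak (blue) and with-peak (orange) tumors. Clec12a and Clec4a1 lie higher in all with-peak tumors, Clec4n and Clec5a lie lower, and the other 6 receptors overlap.

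Of the 22 adaptors and kinases that carry the signal of these receptors, edgeR called 0 in either direction (0% of genes tested). Without adjustment, 2 were higher and 1 lower at p under 0.05 (6.12% and 3.38% of genes tested). DESeq2 called 2 higher (1.24% of genes). The median log2 ratio was 0.07. Those 2 were the adaptors themselves. Tyrobp was at 110, 78.5 and 98.3 CPM before the peak and 155, 183 and 138.5 CPM with it (log2 ratio 0.73, SE 0.15, adjusted p = 0.179 by edgeR). Fcer1g was at 71.8, 64.3 and 58.7 CPM before the peak and 107, 123 and 82.8 CPM with it (log2 ratio 0.69, SE 0.16, adjusted p = 0.219 by edgeR). Both were higher in every with-peak tumor, as were 8 of the 12 macrophage markers. Plcg2, the phospholipase downstream of SYK, had a log2 ratio of -0.54 (SE 0.19, adjusted p = 0.435 by edgeR). Syk and Card9, which lie downstream of the activating receptors, had log2 ratios of 0.35 (SE 0.33) and 0.16 (SE 0.28), with overlapping groups and edgeR adjusted p of 0.779 and 0.887.

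Inhibitory signalling gave 0 calls among 8 genes by edgeR and by DESeq2, and 0 genes had p under 0.05 before adjustment. Ptpn6 was at 92.5 ± 30.9 and 96.9 ± 9.25 CPM (SD, n = 3; adjusted p = 0.944 by edgeR). The genes with the smallest p-values, the ubiquitin ligases Cblb and Cbl and the lipid phosphatase Inpp5d, had log2 ratios of -0.17, -0.09 and 0.15. The 9 transcription factors of the NF-κB, NFAT and EGR families downstream also gave 0 calls by both tools, edgeR and DESeq2, and 0 with p under 0.05 before adjustment. All 9 had a negative log2 ratio, with a median of -0.17, led by Egr3 (-0.52), Egr2 (-0.42) and Nfkb1 (-0.27).

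Among 20 tested genes that receptor signalling is known to induce or that act in the same response, edgeR called 0. Before adjustment, 4 were higher and 2 lower with p under 0.05 (6.12% and 3.38% of genes tested). By DESeq2 there were 2 higher and 1 lower (1.24% and 0.119% of genes). Cybb and Ncf1, subunits of the phagocyte NADPH oxidase, were higher in every with-peak tumor. Cybb was at 74.5, 73.8 and 88.4 CPM before the peak and 168, 129 and 129 CPM with it (log2 ratio 0.85, SE 0.14, adjusted p = 0.0976 by edgeR), and Ncf1 had a log2 ratio of 0.71 (SE 0.15, adjusted p = 0.179 by edgeR). Il1b, the cytokine interleukin-1β, was lower in every with-peak tumor, at 56.1 to 62.6 CPM against 80.1 to 107 CPM (log2 ratio -0.68, SE 0.13, adjusted p = 0.153 by edgeR). None of these 3 passed the edgeR test, and they are the 3 genes that DESeq2 called.

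Of the 12 myeloid transcription factors, edgeR called 0. Before adjustment, 5 were higher with p under 0.05 (6.12% of genes tested), and DESeq2 called 2 higher (1.24% of genes). The median log2 ratio was 0.37. Klf4, a factor of monocytes and macrophages, had a log2 ratio of 0.77 (SE 0.13, adjusted p = 0.0976 by edgeR). Spi1, the gene of PU.1, was at 68.6, 52.4 and 61.7 CPM before the peak and 75.7, 90.6 and 75.2 CPM with it. All with-peak tumors were higher, but the log2 ratio of 0.40 (SE 0.14) did not pass (adjusted p = 0.401 by edgeR). Csf1r, the receptor for macrophage growth factor, had a log2 ratio of 0.48 (SE 0.18, adjusted p = 0.472 by edgeR).

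The table held 42 other C-type lectins of the 47 listed, of which 33 were tested. EdgeR called 0. Before adjustment, 6 were higher and 2 lower with p under 0.05 (6.12% and 3.38% of genes tested). By DESeq2 3 were higher and 1 lower (1.24% and 0.119% of genes). Their median log2 ratio was 0.20. Of the 33, 6 were higher in every with-peak tumor, where the receptors described here had 6 of 10 and all genes tested 8.13%. This difference was not tested, since the receptors were chosen on this contrast. Clec10a and Mgl2, both galactose-type lectins of macrophages and dendritic cells, went opposite ways. Clec10a was at 21.2, 17.6 and 28.1 CPM before the peak and 52.6, 108 and 47.6 CPM with it (log2 ratio 1.64, SE 0.36, adjusted p = 0.270 by edgeR). Mgl2 was at 24.2, 27.3 and 23.8 CPM before the peak and 11.6, 17.8 and 13.2 CPM with it (log2 ratio -0.83, SE 0.20, adjusted p = 0.243 by edgeR). They are close paralogs, and whether reads were split between them was not tested. Cd302 had a log2 ratio of 0.97 (SE 0.24, adjusted p = 0.275 by edgeR).

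Likeness to the receptors was measured as the root mean square difference between centred log2 CPM profiles over the 6 libraries. The mean profile of the 10 receptors ran at -0.72, -0.44 and -0.27 before the peak and at 0.59, 0.64 and 0.19 with it. Clec4a3 and Clec4a1 were nearest to this mean (0.14 and 0.15) and Clec12a was farthest (0.77). Outside the family the 5 nearest genes were Gm15793 (0.11), Tspan8 (0.11), Adgrl4 (0.13), Pkib (0.14) and Tlr7 (0.14). Tlr7, the endosomal receptor for single-stranded RNA, was at 6.66, 6.65 and 9.999 CPM before the peak and 16.97, 19.04 and 13.0 CPM with it. These genes were picked for likeness, so their separation adds no support.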

How the data were processed

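The authors deposited raw counts per gene, whole numbers without normalization, in 1 column per tumor. The tools FastQC and STAR and the build mm10 are named per the submitters' processing notes; for versions, read counter and annotation, nothing is given in the sources used here. Per the labels' protocols, libraries were made from poly(A)-selected RNA and do not keep strand. Symbols, coordinates and exon lengths came from GENCODE M21 (GRCm38), which 23479 of 23508 identifiers matched, and start-site regions from RefSeq (GRCm38.p6).

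Counts were filtered with filterByExpr (minimum count 10, minimum total 15), scaled by TMM and fitted in edgeR 4.0.16 under R 4.3.3 (robust quasi-likelihood test, two-sided, Benjamini-Hochberg over 16755 genes, threshold 0.05). The SE of a log2 fold change is its size over the square root of F. Log2 CPM used a prior count of 2. A gene of few counts carries large counting error. The receptors and gene lists were chosen with earlier results of these data known. Named from each list were the 3 genes with the smallest p-values, since no gene passed, plus Fcer1g, Tyrobp, Syk, Card9, Ptpn6, Spi1, Csf1r and Ptprc and the 5 genes most like the receptors' mean profile; 1 gene that this rule names is not reported here, and others were named after their values were seen. Libraries of 1 group differed well beyond sampling noise (chi-square over degrees of freedom 17.1 to 28.9). On simulated counts for this comparison (16424 genes) the test called 41 of 100 genes changed by a log2 of 1, 70 of 100 changed by 2, and 18 unchanged genes. Alternatives were RLE factors, library size alone, other filters, DESeq2 1.42.0, limma-voom (limma 3.58.1), a block for replicate number, and each library left out in turn.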

Additional observations from a re-analysis of the deposited data

How the results depend on the processing

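As in the main edgeR test, 0 genes were called higher and 0 lower by edgeR with RLE factors, with library size alone or with at least 1 CPM in 3 libraries, and by limma-voom. Without a filter on low counts edgeR called 26 higher and 3 lower, among them Clec12a and, of the signalling and other lectin lists, 1 gene (Cybb). DESeq2 called 240 higher and 23 lower, with 9 higher and 2 lower in those lists; the cause was not tested. Leaving out 1 tumor gave 0 to 17 genes higher, 17 when before-peak replicate 2 was left out (Clec7a among them), 13 for before-peak replicate 3 and 9 for with-peak replicate 1, and 0 lower. The median log2 fold change of the receptors was then 0.78 to 1.17, the highest without before-peak replicate 3. The number of receptors higher in every with-peak tumor was 6 in the main setting (8.13% of genes tested). It was 6 or 7 with each tumor left out and 6 under RLE factors and library size alone. No share over all genes is given for those settings. The number was 5 relative to Ptprc (2.14% of genes), 4 relative to Csf1r (1.43%) and 2 relative to the macrophage markers (0.645%). It was 2 relative to Tyrobp (0.597%) and 1 relative to Fcer1g (0.519%). These relative settings were chosen after seeing the data, and nothing is read from the counts. Of 130 fold changes of single receptors under the alternatives, all moved by less than 1 SD between tumors. Leaving out 1 of 3 tumors can hardly move a group mean that far, so nothing is read from this. Clec7a, at 1.52 in the main fit, ran from 1.26 to 2.15. The other sign was seen in 4 fold changes, those of Clec4n, Clec5a and Clec9a without 1 tumor. The labels state no pairing, and deviations of same-numbered tumors correlated at -0.06, -0.10 and 0.03. A replicate block in the model gave 1 gene called higher and 0 lower, and no other call above changed. Clec9a had 6 to 61 counts per library, so its counting error is large, and its counts also differed widely between tumors of 1 group.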

Other observations

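Markers of monocytes did not share 1 direction, in contrast to the macrophage markers. Of the 10 monocyte markers, 6 were on the positive and 4 on the negative side (median log2 fold change 0.22), and edgeR called 0. At an unadjusted edgeR p under 0.05, 3 were higher and 1 lower (6.12% and 3.38% of genes tested). DESeq2 called 1 higher (1.24% of genes). Plac8, a gene of classical monocytes, was at 28.1, 34.8 and 51.7 CPM before the peak and 156, 118 and 79.7 CPM with it (log2 fold change 1.63, adjusted p = 0.197 by edgeR). Treml4, a gene of patrolling monocytes, was at 2.49, 1.64 and 2.25 CPM before the peak and 0.70, 0.78 and 0.87 CPM with it (log2 fold change -1.43, adjusted p = 0.395 by edgeR). Ly6c2 was at 5.38, 11.4 and 12.8 CPM before the peak and 24.3, 21.5 and 9.22 CPM with it, so the groups overlapped.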
